A study of Mus musculus with 6 samples.

Results

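The CC chemokines examined here were 10 mouse genes: Ccl2, Ccl3, Ccl4, Ccl5, Ccl6, Ccl7, Ccl9, Ccl12, Ccl17 and Ccl22. Each was read by the array row whose annotation names that gene alone, and all 10 were found, among 19937 genes measured. Gene expression had been profiled on Affymetrix arrays in A9M cells, mouse haematopoietic stem and progenitor cells transformed by HoxA9 and Meis1 and used as a model of acute myeloid leukaemia. One group was treated for 5 days with UNC0638 (3 arrays), a small molecule inhibitor of the histone methyltransferases G9a and GLP, and the other for 5 days with DMSO, the solvent (3 arrays). All 6 samples carried the HoxA9 and Meis1 transgenes and grew in serum-containing medium with stem cell factor and the interleukins IL3 and IL6. The labels do not say whether the samples were separate cultures, so the p-values below rest on a spread between arrays that may be technical.

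CC chemokines are small secreted proteins, named for a pair of adjacent cysteines, that bind G protein-coupled receptors and draw leukocytes along a gradient. Myeloid cells make many of them, and transcription of several is switched on by NF-kappaB and by interferon signalling. In the mouse, Ccl2, Ccl7 and Ccl12 attract monocytes through Ccr2, the receptor by which monocytes leave the bone marrow. Ccl3, Ccl5, Ccl6 and Ccl9 bind Ccr1, and Ccl17 and Ccl22 bind Ccr4 on T cells.

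The genes lie in clusters. Of the 10, 8 are on chromosome 11 and 2, Ccl17 and Ccl22, on chromosome 8. The sequences just upstream are shown for the 4 members with an entry in the promoter table among the 7 whose signal exceeded the upper quartile of every array, all 7 on chromosome 11, so that neighbouring genes can be set beside their expression values. Each is 250 bases ending at the base before the annotated start (RefSeq, GRCm38.p6), written 5′ to 3′ on the gene's strand. Capitals mark matches to any of 5 motifs searched on both strands: NF-kappaB (GGG, any 5 bases, CC), interferon-stimulated response element (GAAA, any 2 bases, GAAA), STAT (TTCNNNGAA), AP-1 (TGANTCA) and C/EBP (TTGCGCAA).
Ccl12, chr11:82101595-82101844, plus strand: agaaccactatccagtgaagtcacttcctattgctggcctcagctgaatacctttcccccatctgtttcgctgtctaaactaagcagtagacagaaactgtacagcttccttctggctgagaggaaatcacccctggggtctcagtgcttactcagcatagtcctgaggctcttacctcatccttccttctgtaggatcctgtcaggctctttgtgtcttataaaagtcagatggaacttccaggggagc
Ccl9, chr11:83578637-83578886, minus strand: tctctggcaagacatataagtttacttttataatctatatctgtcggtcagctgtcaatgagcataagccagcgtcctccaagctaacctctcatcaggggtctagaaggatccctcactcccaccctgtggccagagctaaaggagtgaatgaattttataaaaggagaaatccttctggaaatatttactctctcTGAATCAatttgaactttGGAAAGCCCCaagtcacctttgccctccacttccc
Ccl6, chr11:83593088-83593337, minus strand: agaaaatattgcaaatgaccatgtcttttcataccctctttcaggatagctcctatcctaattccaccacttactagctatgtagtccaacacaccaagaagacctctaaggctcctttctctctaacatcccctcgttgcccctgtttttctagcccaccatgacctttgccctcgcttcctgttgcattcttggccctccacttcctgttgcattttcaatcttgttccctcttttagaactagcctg
Ccl3, chr11:83649379-83649628, minus strand: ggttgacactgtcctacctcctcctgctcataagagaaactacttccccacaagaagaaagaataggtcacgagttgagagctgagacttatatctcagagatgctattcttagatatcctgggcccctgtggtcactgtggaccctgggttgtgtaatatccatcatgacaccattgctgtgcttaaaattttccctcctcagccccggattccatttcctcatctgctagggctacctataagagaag

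Among these 4 sequences, matches stood in that of Ccl9 alone. It held an AP-1 match 53 to 47 bases before the start and an NF-kappaB match 35 to 26 bases before it. Of the 6 members with a promoter sequence, 2 held the NF-kappaB letters (Ccl9 and Ccl22), against 45.8% of 32851 mouse promoters of the same length. The AP-1 letters stood in 1 of the 6 (6.7% of all promoters) and the STAT letters in 1, Ccl17 (7.0%). The interferon element and the C/EBP letters stood in 0 of the 6 (3.0% and 0.2% of all promoters). A match describes letters in this window and is not evidence of a bound factor. The upstream sequences of Ccl6 and Ccl9, which are neighbours, shared 37.2% of their 250 bases in a global alignment. That was the lowest value over all pairs of the 6, which ran from 37.2% to 48.8%.

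No CC chemokine changed past the threshold after UNC0638. With limma and Benjamini-Hochberg adjustment over all genes, 0 of the 10 had an adjusted p under 0.05, where 0.672% of all genes did. At an unadjusted p under 0.05 there were 2 of the 10, Ccl7 (lower) and Ccl6 (higher), against 12.7% of all genes (6.47% higher and 6.21% lower). The groups did not overlap for 2 of the 10, as for 17% of all genes. The 10 differences, which are UNC0638 minus DMSO of log2(intensity + 16), were split into 5 above 0 and 5 below. They ran from -0.48 (Ccl5) to 0.29 (Ccl6) with a median of -0.043, beside a median of 0.012 over all genes. Intensities of 8 members lay above the array medians (50.4 to 54.9) on all 6 arrays, so for these the signal was not at the dim end of the arrays. In bulk RNA, fewer cells of a type and less RNA per cell cannot be told apart.

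**Figure D1:**
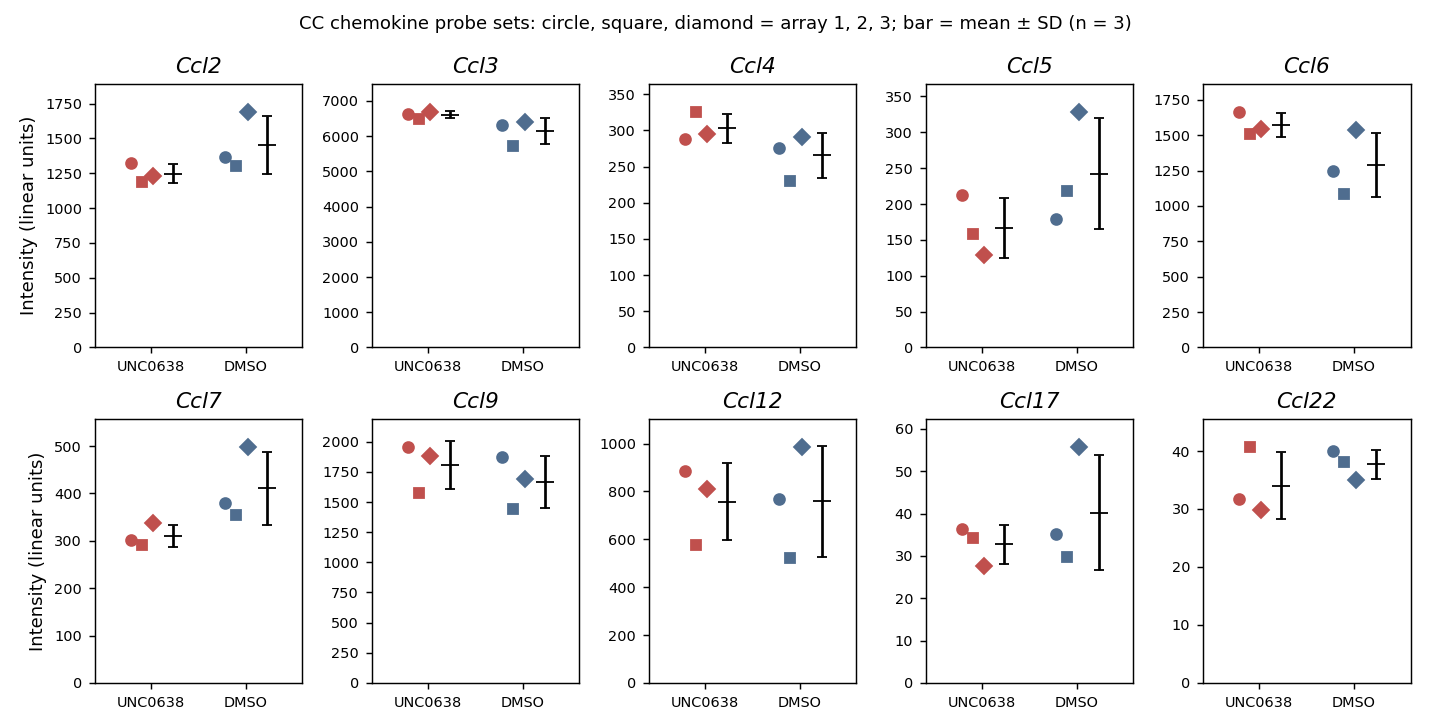
Intensity (linear units, axis from 0) of the 10 CC chemokines on each array, UNC0638 in red and DMSO in blue, with the mean ± SD of 3 arrays in black. Only Ccl3 and Ccl7 show groups that do not overlap.

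Among the Ccr2 ligands, Ccl7, a monocyte attractant, had the lowest p of all members. Its intensities were 302, 292 and 337 on the UNC0638 arrays, against 380, 354 and 498 on the DMSO arrays. All 3 UNC0638 arrays lay below all 3 DMSO arrays, as for 7.4% of all genes, and DMSO 3 stood well above the rest. The means were 310.2 ± 23.6 in UNC0638 and 411 ± 76.4 in DMSO (SD, n = 3 each), a log2 difference of -0.37 (SE 0.13, limma adjusted p = 0.263). Its 95% confidence interval ran from 0.63-fold to 0.945-fold before any adjustment for the number of genes.

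Ccl2, the main attractant of Ccr2-bearing monocytes and the neighbour of Ccl7, had intensities of 1325, 1186 and 1234 in UNC0638, against 1368, 1304 and 1691 in DMSO. The groups overlapped narrowly, since UNC0638 1 lay above DMSO 2. The log2 difference was -0.21 (SE 0.11, limma adjusted p = 0.502), with an interval from 0.726-fold to 1.03-fold. Ccl12, a Ccr2 ligand of the mouse, had intensities of 884, 576 and 811 in UNC0638, against 770, 521 and 985 in DMSO. The UNC0638 values lay within the wider range of the DMSO values, with array 2 the lowest in each group. The log2 difference was 0.020 (SE 0.23, limma adjusted p = 0.987), and its interval, from 0.704-fold to 1.46-fold, was the widest of the 10 on the log2 scale.

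Ccl5, Ccl9, Ccl6, Ccl3 and Ccl4 lie together on chromosome 11. The estimate for Ccl5 was lower in UNC0638 and those for the rest were higher, with none past the threshold. Ccl5, which attracts T cells and monocytes and is known as a target of NF-kappaB and interferon regulatory factors, had the largest difference of the 10. Its intensities were 212, 158 and 129.5 in UNC0638, against 179.6, 219 and 328 in DMSO. The groups overlapped, as UNC0638 1 exceeded DMSO 1. The means were 167 ± 41.9 in UNC0638 and 242 ± 77.2 in DMSO (SD, n = 3 each), a log2 difference of -0.48 (SE 0.22, limma adjusted p = 0.423). The interval ran from 0.504-fold to 1.02-fold.

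Ccl3 and Ccl4, the macrophage inflammatory protein 1 genes, had differences above 0. Ccl3 intensities were 6642, 6497 and 6688 in UNC0638, against 6321, 5708 and 6409 in DMSO. Every UNC0638 array lay above every DMSO array, as for 9.59% of all genes, and the gap was small. The log2 difference was 0.11 (SE 0.080, limma adjusted p = 0.666), with an interval from 0.949-fold to 1.22-fold. Ccl4 intensities were 288, 326 and 294 in UNC0638, against 275, 230.5 and 291 in DMSO. UNC0638 1 lay below DMSO 3, so the groups overlapped, and the log2 difference was 0.18 (SE 0.10, limma adjusted p = 0.53). The gene table places part of Ccl3 and Ccl4 on the same stretch of chromosome 11, and whether any probe reads both was not tested.

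Ccl6 and Ccl9 are Ccr1 ligands that myeloid cells of rodents make in abundance. Ccl6 had intensities of 1665, 1509 and 1542 in UNC0638, against 1249, 1086 and 1535 in DMSO. DMSO 3 reached the UNC0638 range and the other 2 DMSO arrays did not. The means were 1572 ± 82.2 in UNC0638 and 1290.3 ± 227 in DMSO (SD, n = 3 each), a log2 difference of 0.29 (SE 0.12, limma adjusted p = 0.371), with an interval from 1.01-fold to 1.49-fold before adjustment. Ccl9 had intensities of 1955, 1578 and 1883 in UNC0638, against 1875, 1443 and 1689 in DMSO. The groups overlapped for most of their range, and array 2 was the lowest in both. The log2 difference was 0.11 (SE 0.12, limma adjusted p = 0.789). Members of the family are similar in sequence, and sharing of signal between their probes was not tested.

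The Ccr4 ligands were dim. Ccl17, a product of dendritic cells, had intensities of 36.4, 34.2 and 27.5 in UNC0638, against 35.2, 29.8 and 55.7 in DMSO. It exceeded its array's median on 1 of 6 arrays, DMSO 3. Ccl22, which macrophages and dendritic cells secrete, had intensities of 31.7, 40.6 and 29.8 in UNC0638, against 40.03, 38.02 and 34.99 in DMSO, under the median on all 6 arrays. The log2 differences were -0.18 for Ccl17 (SE 0.16, limma adjusted p = 0.725) and -0.11 for Ccl22 (SE 0.099, limma adjusted p = 0.752). At this signal the added constant of 16 shrinks differences, so a change in either gene could be missed.

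**Figure D2:**
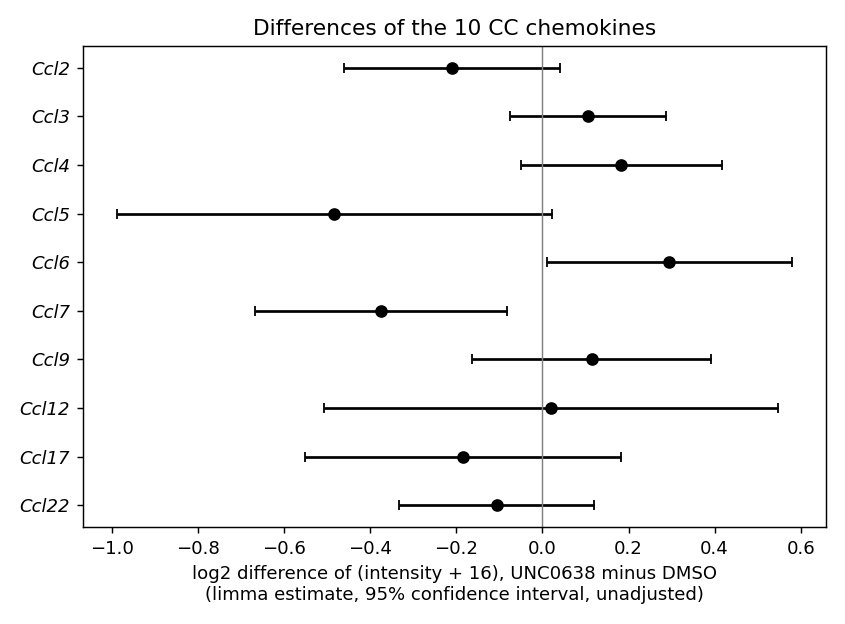
Log2 difference of (intensity + 16), UNC0638 minus DMSO, for each of the 10 CC chemokines, with its unadjusted 95% confidence interval from limma. The intervals of Ccl6 (above) and Ccl7 (below) exclude 0 before adjustment and the other 8 include it.

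Much of the spread lay among the DMSO arrays. The coefficient of variation was larger in DMSO than in UNC0638 for 9 of the 10 members, Ccl22 being the exception, and its median over the members was 9.35% in UNC0638 and 15.9% in DMSO. Over all genes the medians were 10.3% in UNC0638 and 10.1% in DMSO, and DMSO was the more variable for 49.3%. DMSO 3 was the highest DMSO array for 8 members (33.3% of all genes) and DMSO 2 the lowest for 8 (31.6% of all genes). Among genes with a mean intensity of at least 100 these shares were 26.9% and 36.4%. The UNC0638 arrays also differed, with UNC0638 2 the lowest for 6 members (28.0% of all genes) and UNC0638 1 the highest for 6 (24.45%). Without DMSO 3 the log2 difference was -0.25 for Ccl5, -0.23 for Ccl7, -0.098 for Ccl2, 0.23 for Ccl12 and 0.0040 for Ccl17, so the size of each of these differences rested in part on that array. What set DMSO 3 apart for these genes was not tested.

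Read along the chromosome, the values changed sign within the clusters. No CC chemokine in them passed the threshold, so the signs are given as a description only. Among the genes measured, the order in the first cluster of chromosome 11 is Ccl2 (-0.21), Ccl7 (-0.37), Ccl11 (0.17), Ccl12 (0.020), Ccl8 (-0.18) and Ccl1 (0.26). In the second, Ccl5 (-0.48) is followed by Ccl9 (0.11), Ccl6 (0.29), Ccl3 (0.11) and Ccl4 (0.18), then by the whey acidic protein family genes Wfdc17 (0.33), Wfdc18 (0.51) and Wfdc21 (0.12). None of these neighbours passed the threshold. Wfdc18 came nearest, at 105 ± 3.50 in UNC0638 and 69.6 ± 15.3 in DMSO (SD, n = 3 each, limma adjusted p = 0.12). Genes flanking the second cluster on the side of Ccl5 lay near 0 (Heatr9 0.027, Taf15 -0.0060, Mmp28 -0.021). On chromosome 8, Cx3cl1, the fractalkine gene between Ccl22 and Ccl17, was at 0.039. Of all 9 neighbours listed, 0 passed and 2 lay at an unadjusted p under 0.05, both above 0.

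**Figure D3:**
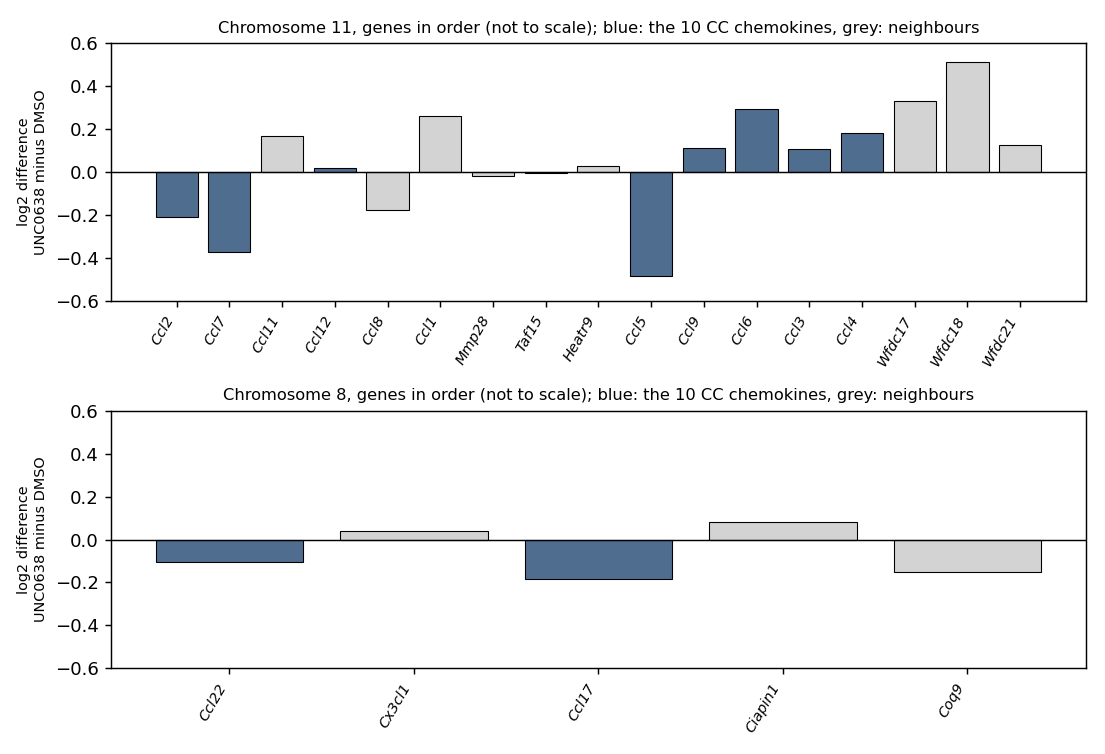
Log2 differences (UNC0638 minus DMSO) of the CC chemokines in blue and of listed neighbours in grey, in gene order along chromosomes 11 and 8 and not to scale. Ccl5 at -0.48 stands next to Ccl9 at 0.11 among the genes shown.

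Of the 9 other CC chemokines measured, 0 passed the limma threshold. The 2 at an unadjusted p under 0.05 were Ccl24, which was lower, and Ccl1, which was higher (0.26). Ccl24, which attracts eosinophils through Ccr3, had intensities of 48.4, 43.8 and 47.6 in UNC0638, against 61.4, 51.1 and 90.7 in DMSO. Those groups did not overlap, with a log2 difference of -0.39 (limma adjusted p = 0.338). Ccl19, a ligand of Ccr7, had the largest value of the list, -1.17, with a wide interval from 0.149-fold to 1.33-fold. Its intensities were 319, 65.1 and 21.5 in UNC0638, against 119.5, 323 and 234 in DMSO, so the arrays of each group differed among themselves by as much as the groups did.

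Of 9 measured CC chemokine receptors, 0 passed the limma threshold and 2, Ccr3 and Ccr7, lay at an unadjusted p under 0.05. Ccr2, the receptor of Ccl2, Ccl7 and Ccl12, had intensities of 3620, 3883 and 3602 in UNC0638, against 3803, 2781 and 3506 in DMSO, a log2 difference of 0.15 (SE 0.12, limma adjusted p = 0.69). Ccr1, the receptor of Ccl3, Ccl5, Ccl6 and Ccl9, had 676, 526 and 602 in UNC0638, against 597, 381 and 576 in DMSO (0.23, SE 0.17, limma adjusted p = 0.665). DMSO 2 was the lowest DMSO array for both receptors, as it was for 8 of the ligands. The largest differences of the list were those of the eosinophil receptor Ccr3 (0.31, limma adjusted p = 0.234), at 45.1 ± 1.82 in UNC0638 and 33.6 ± 6.02 in DMSO (SD, n = 3 each), and of Ccr1. Ccr7, which guides cells to lymph nodes, was at 0.21 (limma adjusted p = 0.336) and, like Ccr3, was higher on all 3 UNC0638 arrays. Ccr4, the receptor of Ccl17 and Ccl22, was at 22.2 ± 1.62 in UNC0638 and 23.4 ± 3.48 in DMSO (SD, n = 3 each), close to the lower quartiles of the arrays (20.9 to 22.8). Among 6 atypical and related receptors 0 passed (1 at an unadjusted p under 0.05), and Ccrl2, a chemerin-binding receptor, was at 0.30 (limma adjusted p = 0.156) and Ackr1 at 0.19.

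Downstream of the receptors, 1 of 15 measured signalling genes rose and 0 fell. It was Rgs2, a regulator that shortens G protein signalling, with 671 ± 49.3 in UNC0638 and 403 ± 10.1 in DMSO (SD, n = 3 each, log2 difference 0.71, SE 0.083, limma adjusted p = 0.0128). Over all genes 0.371% rose and 0.301% fell past the threshold. At an unadjusted p under 0.05 there were 4 of the 15, all higher, against 6.47% of all genes higher. All 3 UNC0638 arrays lay above all 3 DMSO arrays for 6 of the 15, against 9.59% of all genes. The list's median was 0.075. Pik3r5, a subunit of the phosphoinositide 3-kinase that chemokine receptors activate, was at 0.34 (limma adjusted p = 0.115), and its catalytic partner Pik3cg was at 0.23 (0.327).

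Regulators of chemokine transcription and decay gave 0 calls with limma. Among 6 NF-kappaB subunits and kinases, 1 lay at an unadjusted p under 0.05, the median was 0.062, and the largest values were those of Rel (0.32, limma adjusted p = 0.245) and the kinase gene Ikbkb (0.19). Among 8 NF-kappaB feedback genes, 1 did, and the median was -0.016. The inhibitor genes Nfkbia and Tnfaip3, themselves NF-kappaB targets, were at -0.046 and 0.0012, while Nfkbiz was at 0.48 (limma adjusted p = 0.248) and Nfkbib at -0.087. Of 5 genes for proteins that bind AU-rich messenger RNAs, 1, Elavl1 (-0.26), lay at an unadjusted p under 0.05. Khsrp had the largest difference (-0.40) and was not at that level. In this list 3 of the 5 were above 0, and the median was 0.11. Of 10 cytokine genes that induce chemokines, 0 passed and 6 had differences above 0. The 2 at an unadjusted p under 0.05 were Csf1 (-0.32) and Il13 (-0.27), both lower in UNC0638. The largest differences of the list, those of Il1a (0.40) and Il6 (-0.38), were not at that level. Tnf was at 772 ± 148 in UNC0638 and 664 ± 26.4 in DMSO (SD, n = 3 each, 0.19, limma adjusted p = 0.642).

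**Figure D4:**
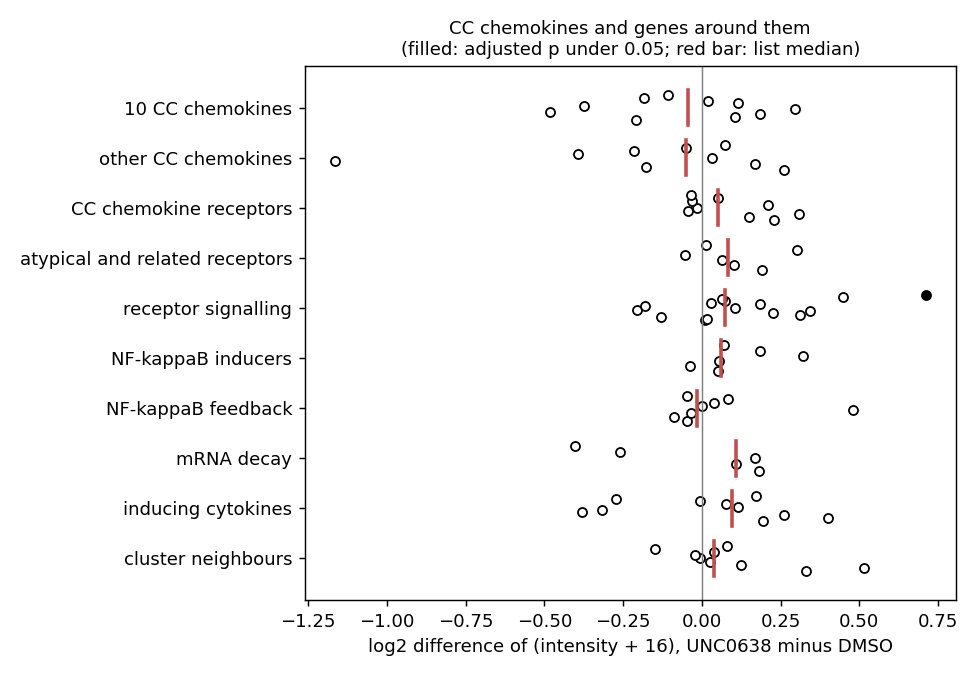
Log2 differences (UNC0638 minus DMSO) of the 10 CC chemokines and of the genes in 9 related lists, 1 point per gene, with list medians as red bars. The filled point is Rgs2 at 0.71, and Ccl19 lies at -1.17.

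The arrays carried the transcripts of the labelled cells. Mpo, a granule enzyme of myeloid progenitors, averaged 6322 ± 148 in UNC0638 and 6031 ± 191 in DMSO (SD, n = 3 each). Of 10 progenitor markers 0 passed with limma and 2 lay at an unadjusted p under 0.05. Markers of monocytes and macrophages, cells that make CC chemokines, did not all move in the same direction. Of 7 measured, 0 passed with limma and 6 lay at an unadjusted p under 0.05 (12.7% of all genes). On all 3 UNC0638 arrays 5 were higher (9.59% of all genes) and 1, Fcgr1, lower (7.4%) than on any DMSO array. Cd14 was at 0.088, with groups that overlapped. The summed intensity of these markers was 13954 to 14909 in UNC0638 and 10133 to 12157 in DMSO. The summed intensity of the 10 CC chemokines overlapped between the groups, at 12197 to 13341 in UNC0638 and 10934 to 13516 in DMSO. Ccl3 (mean 6378 over the 6 arrays) weighed most in this sum, and Lyz2 (6845) in that of the monocyte and macrophage markers. The part of these markers in the chemokine values was not tested. Of 6 dendritic cell markers Itgax alone passed (0.77, limma adjusted p = 0.0118), and Zbtb46 (38.1 in UNC0638, 39.6 in DMSO) and Cd209a (23.4 in UNC0638, 22.1 in DMSO) lay under the array medians.
The summed markers of neutrophils were at 14139 to 17236 in UNC0638 and 12927 to 13440 in DMSO, with 0 of 6 past the threshold (3 at an unadjusted p under 0.05). Those of mast cells and basophils were at 8599.6 to 9229.6 in UNC0638 and 6908 to 7967 in DMSO. Of these 6 genes Cma1 passed (0.73), where 0.672% of all genes did, and 3 lay at an unadjusted p under 0.05. Mmp8 (mean 4812 over the 6 arrays) weighed most in the neutrophil sum and Cpa3 (4435) in that of mast cells and basophils. The summed eosinophil markers, most of which was Prg2, overlapped between groups, at 5206 to 5996 in UNC0638 and 5001 to 6285 in DMSO. Of the 4 genes 0 passed with limma and 2 lay at an unadjusted p under 0.05. Singly, Siglecf (0.83, adjusted p = 0.0808) and Il5ra (0.15) were higher and Epx (-0.50, adjusted p = 0.105) lower on all 3 UNC0638 arrays. Among 5 T and NK cell markers Nkg7 passed (0.90), and 2 lay at an unadjusted p under 0.05. Cd3e averaged 53.2 in UNC0638 and 50.4 in DMSO, near the array medians. B cell and stromal markers had 0 limma calls among 3 and 4 genes (0 and 1 at an unadjusted p under 0.05), and Cd79a averaged 18.9 in UNC0638 and 13.1 in DMSO.

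For the member with the largest difference and the one with the highest mean intensity, the genes with the most similar pattern were sought among 8094 genes with a mean intensity of at least 100. Over the 6 arrays, Ccl5 was followed most closely by Timm23 (Pearson r = 0.986, Spearman rho = 0.943), Zgrf1 (r = 0.98, rho = 1) and Mydgf (r = 0.974, rho = 0.943). For Ccl3 these were Tram1 (r = 0.994, rho = 1), Tceal9 (r = 0.987, rho = 1) and Zfp62 (r = 0.986, rho = 0.886). These were the highest of 8094 correlations on 6 arrays that share their groups, and they are given as a description only.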

How the data were processed

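Total RNA was extracted with Trizol and biotinylated cRNA made from 6 ug, per the labels' protocols. The authors deposited 1 processed intensity per probe set and array on a linear scale; no source used here states their background correction, normalization or software, and such steps can shrink differences of dim probe sets. Array medians were 50.4 to 54.9. Probe sets were named from the platform annotation. Of 34760 probe sets 21640 carry 1 gene symbol, and the brightest on average was taken for each gene (19937 genes). Intensities were transformed as log2(value + 16), which understates changes of dim genes, and all folds and confidence intervals are on that scale. UNC0638 was compared with DMSO by limma 3.58.1 (R 4.3.3, lmFit and eBayes, group alone, 6 arrays), two-sided. Genes were called at a Benjamini-Hochberg adjusted p under 0.05 over the 19937 genes. The procedure was also run on simulated data with values drawn independently, which cannot test array effects shared by many genes. The number of arrays limits the precision, and the labels give no batch. Members and lists were chosen with earlier results of these data known. All members are named, and in each related list every gene that passed, or else the 2 with the largest differences, beside genes added for their role after their values were seen. Some listed genes were not analysed here. Promoters came from RefSeq and were aligned with Biopython 1.88. Alternatives covered scaling, filter, probe set, prior, block, weights, pseudocount, threshold and each array left out.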

Additional observations from a re-analysis of the deposited data

How the results depend on the processing

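The count of CC chemokines past the threshold was 0 in all 17 alternatives, and so was that of the receptors. For the threshold of 0.01, applied to the same fit, that count was fixed in advance. Leaving out the dimmest 40% of genes removed Ccl17 and Ccl22 from the test. The lowest limma adjusted p of any member under any alternative was 0.159 (Ccl6). Of the 10 differences, 8 kept their sign throughout. Ccl12 was at -0.026 under median centring, -0.10 without UNC0638 1, -0.040 without UNC0638 3 and -0.22 without DMSO 2, and at most 0.23 without DMSO 3. Ccl17 was at 0.0040 without DMSO 3 and ran down to -0.32 without DMSO 2. Leaving out 1 array moved Ccl5 between -0.66 and -0.25, Ccl7 between -0.47 and -0.23 and Ccl6 between 0.18 and 0.43. Over all genes 134 passed, with 10 to 69 when 1 array was left out (fewer samples), 192 without the dimmest 40% of genes (fewer genes tested), 182 with the trended and robust prior, 49 with a pseudocount of 64, 18 at the threshold of 0.01 and 73 with the replicate block; the cause of the changes with prior, pseudocount and block was not tested. Of these 134, 55.2% were higher in UNC0638, against 43.5% of 115 under median centring, which moved the median of all genes by -0.046. Deviations from the group means correlated at -0.066, 0.11 and 0.017 between arrays of the same number, so the numbers were not taken as pairs. With the replicate block 0 members passed, and Ccl7 had an adjusted p of 0.17. Signal limits what can be seen for Ccl17 and Ccl22, and 3 arrays per group for the rest.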

Other observations

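Ccl19 was read by 4 probe sets that named it alone and that did not move together. The log2 differences (UNC0638 minus DMSO) were -1.17, 0.76, 0.44 and 0.063. The row at -1.17, which had the highest mean, had 1 UNC0638 array at 319 and another at 21.5. Ccl25, a ligand of Ccr9, had 2 probe sets, at -0.22 and 0.15. Genes of the Ccl21 and Ccl27 families share probe sets with several symbols and were in no test. The Ccl21 row was at 50.2, 62.7 and 49.3 in UNC0638, against 35.9, 49.8 and 41.8 in DMSO, and the brighter Ccl27 row at 81.5, 90.3 and 85.1 in UNC0638, against 79.2, 96.6 and 91.9 in DMSO. In both rows the groups overlapped.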
